A study of Mus musculus with 2 samples.

Results

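Imprinted genes were described in the hearts of 2 male B6CASTF1/J mice aged 25 days, which form the only group of the study. The set held 39 genes that are known to be imprinted in the mouse, out of 55536 annotated genes in the tables, and each was matched by its symbol and gene identifier to exactly 1 row. B6CASTF1/J mice are first-generation hybrids of the strains C57BL/6J and CAST/EiJ, so each heart carried an autosomal copy from either strain. Total RNA of each whole-heart sample (300 ng, with ERCC spike-in RNAs added) was sequenced after removal of ribosomal RNA, and transcript abundance was estimated by the authors on the mm10 assembly with GENCODE M21. The labels number the animals 3 (replicate 1) and 4 (replicate 2) and call them biological replicates, but give both the same donor identifier. The tables held no counts by parental allele, so levels are totals over the maternal and the paternal copy.

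An imprinted gene is transcribed mainly from the copy inherited from the mother or mainly from that inherited from the father. The choice is set by DNA methylation laid down in the egg or sperm at control regions, which zinc finger proteins such as ZFP57 and ZFP445, with their partner TRIM28, protect after fertilization. Most imprinted genes lie in clusters where a long noncoding RNA from a given parent's chromosome silences its neighbours in cis or is transcribed opposite to them. Many paternally expressed members promote fetal growth and many maternally expressed members restrain it, and several are strongly reduced in the weeks after birth in the mouse. The members are ordered below by these roles, with the parental copy as known from earlier work.

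The gene tables summed to 38253821 and 40655101 estimated counts over annotated genes in replicates 1 and 2. All 8 heart muscle markers were present, with a median of 3874 TPM (transcript abundance corrected for length and library size) in replicate 1 and 4086 TPM in replicate 2. All of 7 fibroblast, 6 endothelial and 6 mural markers reached 1 TPM in both hearts, and 0 of 3 thymus and 0 of 3 liver markers did. Fat cell markers differed between the hearts: 6 adipocyte markers summed to 238.8 TPM in replicate 1 and 34.6 TPM in replicate 2. The 5 red blood cell markers had a median log2 ratio of replicate 1 over replicate 2 of 1.01, and 3 lung markers summed to 0.28 TPM in replicate 1 and 2.84 TPM in replicate 2. In whole tissue, fewer cells of a type and less RNA per cell cannot be told apart. With 1 library per animal and no second condition, differences have no replicate test, and an exact two-sided sign-flip test over the hearts could not go below p = 0.5.

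Of the 39 genes, 23 reached 1 TPM or more in both hearts (59.0%), against 21.3% of all annotated genes and 49.5% of protein-coding genes. Their median level was 4.33 TPM in replicate 1 and 4.39 TPM in replicate 2, while the median over protein-coding genes was 1.06 TPM in replicate 1 and 1.08 TPM in replicate 2. Levels spanned from 415 ± 4.61 TPM for Gnas (SD, n = 2 for this and every mean below) to a count of 0 in both hearts for Magel2 and Phlda2. The other 16 genes were under 1 TPM in at least 1 heart, and 14 genes averaged under 0.5 TPM.

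**Figure D1:**
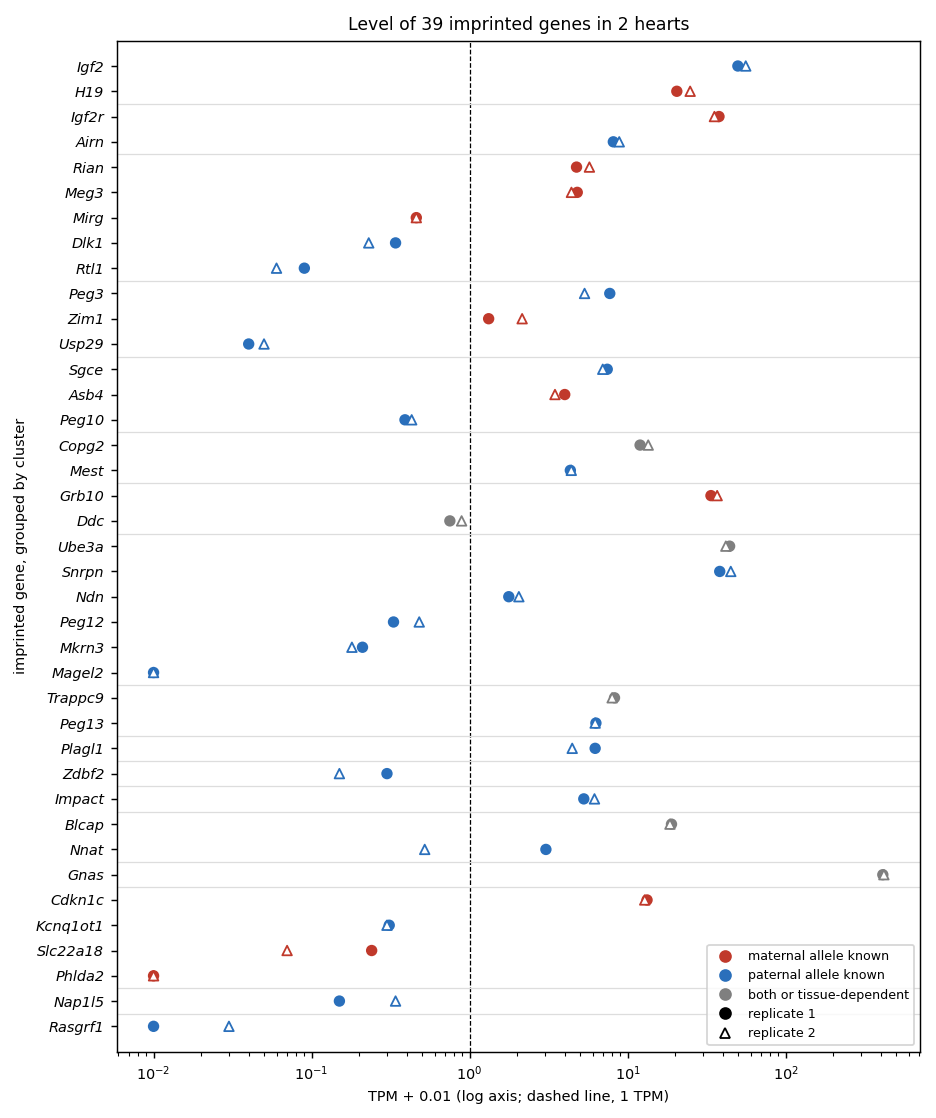
TPM + 0.01 (log axis) of each of the 39 genes in replicate 1 (filled circles) and replicate 2 (open triangles), grouped by imprinted cluster and coloured by the parental copy known to be expressed. Gnas stands alone near 415 TPM, 23 genes lie right of the 1 TPM line in both hearts, and Nnat is the gene whose points straddle that line.

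Genes of the insulin-like growth factor axis were among the most abundant members. Igf2 (chr7:142650766-142666816, minus strand), the paternally expressed fetal growth factor, had 49.8 TPM in replicate 1 and 55.9 TPM in replicate 2. H19 (chr7:142575529-142578143, minus strand), the maternally expressed noncoding RNA that shares enhancers with Igf2 and hosts a microRNA, had 20.5 and 24.9 TPM. Both were slightly lower in replicate 1, by 0.10 (Igf2) and 0.24 (H19) on the log2 scale of scaled counts; scaled by spike-in totals, Igf2 was higher in replicate 1 by 0.04. Within each heart H19 was below Igf2, with a log2 ratio of H19 over Igf2 of -1.28 in replicate 1 and -1.17 in replicate 2. Igf2 in turn was above its unimprinted relative Igf1, which had 8.48 and 8.22 TPM, by a mean log2 ratio of 2.65 ± 0.15. Pair ratios here and below are of TPM + 0.1 within a heart.

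Imprinted receptor and adaptor genes of the axis were near the level of the ligand. Igf2r (chr17:12682406-12769664, minus strand), the maternally expressed receptor that carries IGF2 to lysosomes, had 37.9 TPM in replicate 1 and 35.4 TPM in replicate 2. That was above the signalling receptor Igf1r, at 4.97 and 4.56 TPM, by a mean log2 ratio of 2.92 ± 0.02. Airn (chr17:12741311-12860136, plus strand) is the paternally expressed RNA that runs across the Igf2r promoter in the opposite direction. It had 8.11 and 8.84 TPM from 247 and 299 counts. These TPM rest on models with an effective length of 0.93 kb in replicate 1, far shorter than the annotated span of the gene. The ratio to Igf2r depends on these models too. The log2 ratio of Airn over Igf2r was -2.21 in replicate 1 and -1.99 in replicate 2, a mean of -2.10, and -1.52 in the authors' second tables, which were estimated from the read files. The genes overlap by 28354 bases, and the sources used here do not say whether counting used the strand of the reads, so reads from the overlap may have been assigned to either. Grb10 (chr11:11930508-12038683, minus strand), an adaptor that dampens insulin and IGF receptor signalling and is maternally expressed outside neurons, had 33.7 and 36.9 TPM. Its relative Grb14 had 62.1 and 72.3 TPM, and the log2 ratio of Grb10 over Grb14 averaged -0.93 ± 0.06. Of 8 further genes of the IGF system, 5 reached 1 TPM in both hearts, led by Grb14, the insulin receptor gene Insr (48.1 and 42.1 TPM) and Igf1.

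Cell cycle and growth regulators of the other clusters were intermediate. Cdkn1c (chr7:143458339-143461050, minus strand), the maternally expressed p57 inhibitor of cyclin-dependent kinases, had 13.3 TPM in replicate 1 and 12.8 TPM in replicate 2. It was below Cdkn1a, with a mean log2 ratio of -1.54 ± 0.05, and below Cdkn1b by -0.29 ± 0.17. In the authors' second quantification the ratio to Cdkn1b was 0.10, so the order of Cdkn1c and Cdkn1b depended on the table. Kcnq1ot1 (chr7:143203458-143296549, minus strand), the paternally expressed antisense RNA of the same cluster, was at 0.30 and 0.29 TPM although it held 916 and 959 counts. Its annotated transcript has an effective length of 93.0 kb, so it ranked 4260 of all genes by mean CPM (counts scaled to library size) but 14941 by mean TPM. It overlaps Kcnq1 over its whole length on the other strand, and Kcnq1 held 1349 and 1330 counts. The other maternally expressed genes of the cluster were at the bottom. Slc22a18, a membrane transporter gene, had 7 and 3 counts, and Phlda2, which restrains placental growth, had none in either heart, where 3 counts would be 0.0784 and 0.0738 CPM. The log2 ratio over Cdkn1c was -5.84 ± 0.70 for Slc22a18, and the log2 ratio of Cdkn1c over Kcnq1ot1 was 5.06 ± 0.01. With pseudocounts of 0.01 and 1 TPM these became -6.65 and -3.62 for Slc22a18 and 5.42 and 3.44 for Cdkn1c over Kcnq1ot1.

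Plagl1 (chr10:13060504-13131694, plus strand), a paternally expressed zinc finger factor that restrains cell growth, had 6.22 TPM in replicate 1 and 4.45 TPM in replicate 2. The counts gave no such difference: they stood at 416 (replicate 1) against 475 (replicate 2), or -0.05 on the log2 scale after scaling (95% interval -0.25 to 0.14). Transcript models under 1000 bases held 63.0% of its TPM in replicate 1 and 42.6% in replicate 2. So its TPM was higher in replicate 1 while its counts did not differ beyond counting error.

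Gnas (chr2:174284320-174346744, plus strand) was the most abundant member, with 412 TPM in replicate 1 and 418 TPM in replicate 2, above 98.7% of genes at 1 TPM or more in both hearts. It encodes Gsα, the G protein subunit that couples beta-adrenergic receptors to adenylyl cyclase, and the locus has several first exons with different imprinting. Gsα itself is expressed from both copies in most tissues, the Nesp form from the maternal copy, and the XLαs and exon 1A forms from the paternal copy. RefSeq gives promoters (250 bases before to 50 after a start) for 3 of these starts, on GRCm38.p6, the assembly also called mm10. They are printed because the TPM of Gnas differs strongly between these starts, with CG dinucleotides, the sites of DNA methylation, in capitals, on the plus strand.
Gnas start 1, upstream (chr2:174284070-174284369): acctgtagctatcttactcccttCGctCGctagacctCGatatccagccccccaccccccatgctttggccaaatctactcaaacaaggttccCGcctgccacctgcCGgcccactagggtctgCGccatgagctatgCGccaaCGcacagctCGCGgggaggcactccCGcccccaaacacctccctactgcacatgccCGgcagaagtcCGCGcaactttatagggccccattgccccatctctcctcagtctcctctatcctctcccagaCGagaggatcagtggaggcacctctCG
Gnas start 2, exon 1A region (chr2:174327499-174327798): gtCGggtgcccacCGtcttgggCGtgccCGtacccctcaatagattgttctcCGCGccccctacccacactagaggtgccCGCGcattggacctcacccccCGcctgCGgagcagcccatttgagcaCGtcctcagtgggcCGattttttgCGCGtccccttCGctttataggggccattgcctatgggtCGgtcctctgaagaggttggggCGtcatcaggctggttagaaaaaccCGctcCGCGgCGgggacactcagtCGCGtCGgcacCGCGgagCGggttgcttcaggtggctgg
Gnas start 3, Gsα (chr2:174329756-174330055): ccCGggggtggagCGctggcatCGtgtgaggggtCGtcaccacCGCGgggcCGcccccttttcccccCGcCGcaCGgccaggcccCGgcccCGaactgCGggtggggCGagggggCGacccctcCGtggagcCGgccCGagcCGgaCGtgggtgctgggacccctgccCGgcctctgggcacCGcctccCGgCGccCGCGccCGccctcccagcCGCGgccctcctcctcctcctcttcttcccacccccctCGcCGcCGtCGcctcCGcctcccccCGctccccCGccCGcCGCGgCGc
The windows hold 16, 27 and 40 CG dinucleotides in that order, against a median of 7 over 32851 promoters of the table. Starts within 100 bases of start 3 carried 404.9 TPM in replicate 1 and 410.3 TPM in replicate 2, which is 98.3% and 98.0% of the gene. Start 1 carried 0.02 and 0 TPM, and start 2 carried 1.79 and 1.43 TPM. The 7 models from the XLαs region, 13539 bases after the first start, summed to 0.02 and 0.01 TPM.

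The share of the exon 1A region depended on the quantification. In the authors' second tables, the 6 models that start between 43250 and 43703 bases after the first start held 22.1% and 21.1% of Gnas TPM, against 0.72% and 0.52% in the first. Most of that (91.1% in replicate 1 and 79.9% in replicate 2) lay on Gnas-218, a processed transcript of 607 bases, which had 119.7 TPM in replicate 1 and 104.0 TPM in replicate 2 in the second tables and 0.64 and 0.12 TPM in the first. The Gsα start remained the leading start in either set of tables, with 77.6% and 78.6% in the second. Nespas, the antisense noncoding RNA of the locus, had 2 counts in each heart.

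Grb10 also divided by start, and its promoters are given because they differ in CG content and in the TPM attached to them. Both are on the minus strand, 9449 bases apart, with CG in capitals.
Grb10 upstream start (chr11:12037371-12037670): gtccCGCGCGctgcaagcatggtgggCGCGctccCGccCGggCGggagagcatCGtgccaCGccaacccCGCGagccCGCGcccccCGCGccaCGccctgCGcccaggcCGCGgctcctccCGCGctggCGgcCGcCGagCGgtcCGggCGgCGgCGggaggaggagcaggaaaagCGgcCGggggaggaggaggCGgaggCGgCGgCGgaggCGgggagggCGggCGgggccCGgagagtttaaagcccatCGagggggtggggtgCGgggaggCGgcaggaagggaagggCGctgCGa
Grb10 downstream start (chr11:12027922-12028221): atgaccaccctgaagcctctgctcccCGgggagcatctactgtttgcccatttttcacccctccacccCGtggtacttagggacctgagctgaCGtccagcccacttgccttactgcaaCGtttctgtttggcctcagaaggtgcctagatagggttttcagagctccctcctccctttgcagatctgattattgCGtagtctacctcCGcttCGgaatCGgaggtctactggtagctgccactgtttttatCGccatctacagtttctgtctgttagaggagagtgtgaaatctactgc
The upstream window holds 45 CG dinucleotides and 1 match to TGCCGC, the letters that ZFP57 recognizes, and the downstream window holds 9 and no match. The upstream start carried 25.6 TPM in replicate 1 and 27.6 TPM in replicate 2, or 76.0% and 74.9% of Grb10. The downstream start carried 2.81 and 1.42 TPM, or 8.35% and 3.85%. A pair of short models that start 11951 to 12359 bases after the first annotated start, Grb10-207 leading, carried more, at 4.66 and 7.0 TPM (13.8% and 19%). In the second tables the upstream start held 59.3% and 65.5%, the downstream start 13.2% and 7.77%, the short pair 6.64% and 7.19%, and the last annotated start 11.8% and 10.5%. In the mouse, the upstream promoter is known as the maternal one outside the brain, while starts further into the gene serve the paternal copy in neurons.

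The neighbour of Grb10, Ddc (aromatic amino acid decarboxylase, with a paternally expressed form described in embryonic mouse heart), had 30 counts in replicate 1 and 29 in replicate 2, or 0.74 and 0.88 TPM. Grb10 over Ddc had a mean log2 ratio of 5.28 ± 0.07, which was 4.32 with a pseudocount of 1 TPM.

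The Snrpn-Ube3a cluster, whose human counterpart is the Prader-Willi and Angelman region, held a pair of abundant genes and several low or silent ones. Ube3a (chr7:59228750-59311536, plus strand), a ubiquitin ligase gene that is imprinted in neurons and expressed from both copies elsewhere, had 44.2 TPM in replicate 1 and 41.8 TPM in replicate 2. Snrpn (chr7:59982495-60140219, minus strand), which encodes the spliceosome protein SmN and is paternally expressed, had 38.3 and 45.0 TPM. The log2 ratio of Snrpn over Ube3a was -0.21 in replicate 1 and 0.10 in replicate 2, so their order was not the same in both hearts. Snrpn was below the related unimprinted gene Snrpb, at 47.3 and 51.8 TPM, by a mean log2 ratio of -0.25 ± 0.07.

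The Snrpn level is uncertain because other models share its exons. Snurf, the upstream reading frame of the same transcript, was listed as a gene of its own with 447 and 495 counts, and its effective length of 117 bases turned these into 117 and 120 TPM. In the second tables Snurf was listed at 0, and Snrpn had 45.0 and 52.8 TPM. The first tables placed all of Snrpn on Snrpn-201 and the second placed all of it on Snrpn-202, which starts 135108 bases further upstream. Over Snrpn, Snurf and the overlapping Gm38393 together, counts summed to 2886 in replicate 1 and 3598 in replicate 2.

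The intronless genes of this cluster were low. Ndn (chr7:62346569-62350262, plus strand), encoding necdin, had 1.76 TPM in replicate 1 and 2.04 TPM in replicate 2 from 207 and 258 counts. Peg12, a Frat family gene, had 0.32 and 0.47 TPM, below Frat1 by a mean log2 ratio of -1.88 ± 0.23 (-0.95 with a pseudocount of 1 TPM). Mkrn3, a ubiquitin ligase gene, had 16 and 15 counts. Magel2, whose protein partners ubiquitin ligases, had no count in either heart. Snhg14, the long host RNA that runs antisense into Ube3a, had 2.80 and 2.51 TPM, and its overlap with the annotated Ube3a gene is 3613 bases.

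In the Dlk1-Dio3 cluster the maternal noncoding RNAs Meg3 and Rian reached 1 TPM in both hearts, while the third, Mirg, and the paternal coding genes Dlk1 and Rtl1 had 20 counts or fewer in each heart. Meg3 (chr12:109541001-109571726, plus strand) had 4.79 TPM in replicate 1 and 4.40 TPM in replicate 2. Rian (chr12:109603940-109661716, plus strand), a host of box C/D small nucleolar RNAs, had 4.74 and 5.72 TPM, and its log2 ratio over Meg3 was -0.01 in replicate 1 and 0.37 in replicate 2. Mirg, a microRNA host further along the same strand, was at 0.45 TPM in each heart from 18 and 20 counts, with a mean log2 ratio over Meg3 of -3.09 ± 0.08. Dlk1, a Notch-related transmembrane protein that falls after birth in many mouse tissues, had 12 and 8 counts, or 0.33 and 0.22 TPM. Meg3 over Dlk1 had a mean log2 ratio of 3.66 ± 0.22. Rtl1, a retrotransposon-derived gene, had 16 and 11 counts, and its log2 ratio over Dlk1 averaged -1.17 ± 0.12. These ratios of scarce transcripts depended on the pseudocount: with 0.01 and 1 TPM, Meg3 over Dlk1 was 4.04 and 2.13, Mirg over Meg3 -3.32 and -1.95, and Rtl1 over Dlk1 -1.93 and -0.26.

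The mature small RNAs of these hosts were not seen in the tables. Of 47 annotated microRNA and small nucleolar RNA genes inside the members, 47 had a count of 0 in both hearts. The same held for 34 of 34 listed small RNAs of imprinted clusters that were found by symbol. In replicate 1 the effective length was 3595 bases for the 3694 bases of Ndn, and 4626 for the 4725 bases of Peg13. Most of the 47 small RNA genes are no longer than this shortfall, so a count of 0 was largely fixed in advance. Reads that fall inside a host transcript can be assigned to the host, and the sources used here give no read or fragment length, so these zeros do not bear on the level of mature microRNAs.

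In the Peg3 cluster the paternal gene Peg3 (chr7:6703892-6730431, minus strand), a zinc finger gene with roles in growth and maternal behaviour, had 7.70 TPM in replicate 1 and 5.33 TPM in replicate 2. Replicate 1 held 1725 counts and replicate 2 held 1300, which gave 0.55 as the log2 ratio (95% interval 0.44 to 0.65). The maternally expressed neighbour Zim1 had 1.31 and 2.14 TPM, while its counts of 177 and 188 gave a log2 ratio of 0.05 (95% interval -0.25 to 0.36). The log2 ratio of Zim1 over Peg3 was -2.47 in replicate 1 and -1.28 in replicate 2, while the counts of Zim1 did not differ beyond counting error. In the second tables the mean ratio was -1.25, against -1.87 in the first, and Zim1 was the higher in replicate 1, at 3.11 TPM against 2.37 TPM in replicate 2. Usp29, a deubiquitinase gene that starts 164 bases from Peg3 on the opposite strand, had 4 counts in each heart, and its log2 ratio over Peg3 averaged -5.59 ± 0.45 (-7.16 and -2.84 with pseudocounts of 0.01 and 1 TPM). The promoter of Peg3 is given because most of its bases also lie in the window of Usp29, with CG in capitals, on the minus strand.
Peg3 (chr7:6730370-6730669): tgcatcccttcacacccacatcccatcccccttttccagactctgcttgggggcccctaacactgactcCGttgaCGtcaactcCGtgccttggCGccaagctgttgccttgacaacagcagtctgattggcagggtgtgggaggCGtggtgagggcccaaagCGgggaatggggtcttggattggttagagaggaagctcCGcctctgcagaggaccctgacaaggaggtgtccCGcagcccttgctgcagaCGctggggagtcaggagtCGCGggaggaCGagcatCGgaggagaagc
It holds 13 CG dinucleotides and no match to TGCCGC. Models that start there carried 7.05 of the 7.70 TPM of Peg3 in replicate 1 and 5.03 of 5.33 TPM in replicate 2.

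In the Peg10-Sgce cluster, Sgce (chr6:4674350-4747207, minus strand), which encodes epsilon-sarcoglycan of the membrane complex that links the cytoskeleton to the matrix, had 7.42 and 6.95 TPM. Sgca, its striated muscle relative, had 54.3 and 58.1 TPM, so that the log2 ratio of Sgce over Sgca averaged -2.95 ± 0.14. Peg10, which starts next to Sgce on the other strand, had 0.38 and 0.42 TPM from 82 and 95 counts, with a mean log2 ratio over Sgce of -3.87 ± 0.15 (-2.55 with a pseudocount of 1 TPM). The maternally expressed Asb4 (chr6:5383386-5433022, plus strand), a ubiquitin ligase adaptor gene, had 3.99 and 3.46 TPM, and its log2 ratio over Sgce averaged -0.93 ± 0.08.

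Mest (chr6:30723547-30748465, plus strand), a paternally expressed hydrolase-like gene of mesoderm, had 4.33 TPM in replicate 1 and 4.39 TPM in replicate 2. Copg2 (chr6:30747554-30896794, minus strand), a coatomer subunit gene whose end overlaps Mest by 912 bases, had 12.0 and 13.5 TPM. Mest over Copg2 had a mean log2 ratio of -1.52 ± 0.11, and Copg2 over its relative Copg1 one of -0.27 ± 0.14. The downstream Mest promoter is given because the leading transcript starts there and because it holds 2 of the TGCCGC matches found among members, with CG in capitals, on the plus strand.
Mest (chr6:30737800-30738099): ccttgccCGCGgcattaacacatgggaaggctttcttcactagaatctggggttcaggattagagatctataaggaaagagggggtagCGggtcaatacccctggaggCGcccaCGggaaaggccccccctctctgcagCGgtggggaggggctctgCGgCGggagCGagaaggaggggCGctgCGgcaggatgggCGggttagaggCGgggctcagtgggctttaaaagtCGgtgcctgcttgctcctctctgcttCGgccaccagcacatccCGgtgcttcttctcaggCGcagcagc
It holds 17 CG dinucleotides, against 8 in the upstream Mest window. Starts near it carried 98.6% and 100% of Mest TPM in the first tables, and 59.2% and 91.1% in the second. The upstream start held the next largest share in the second tables, at 38.7% in replicate 1 and 8.90% in replicate 2.

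**Figure D2:**
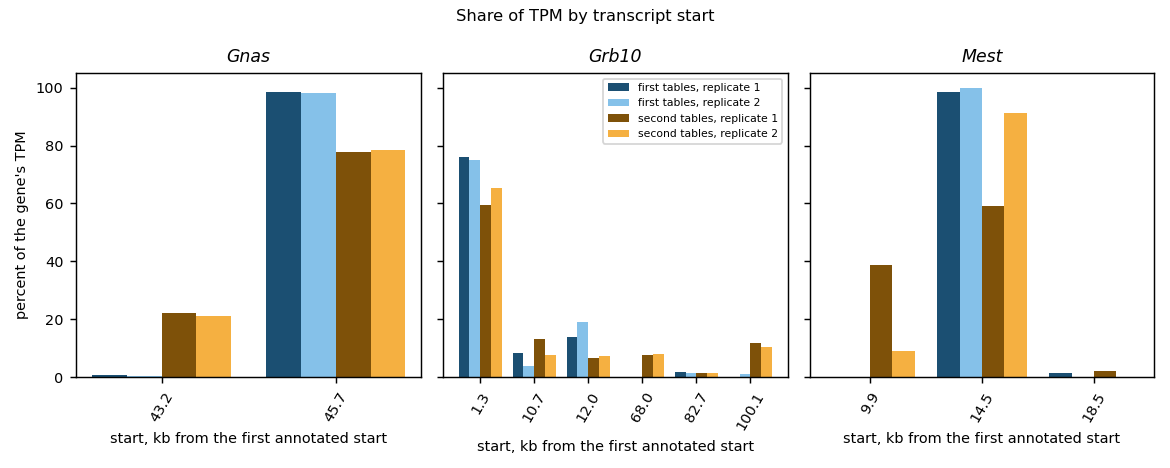
Percent of each gene's TPM (vertical axis) on transcripts that start at a given distance in kb from the first annotated start (horizontal axis), for Gnas, Grb10 and Mest, with bars for each heart and each set of tables; starts under 1% in all 4 are left out. The leading start is the same in all 4 bars of each gene, at 98.3% and 98.1% for Gnas and 76.0% and 74.9% for Grb10 in the first tables, and the second tables place more TPM on other starts.

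Peg13 (chr15:72805600-72810324, minus strand), a paternally expressed noncoding RNA inside an intron of Trappc9, had 6.29 and 6.22 TPM. Trappc9 (chr15:72589620-73061204, minus strand), a vesicle transport gene, had 8.25 and 7.97 TPM, and the log2 ratio of Peg13 over Trappc9 averaged -0.37 ± 0.02. The genes lie on the same strand, so reads from unspliced Trappc9 RNA cannot be told from Peg13. Impact, a paternally expressed inhibitor of the kinase GCN2, had 5.27 and 6.16 TPM. Its counts pointed the other way, at 394 (replicate 1) against 355 (replicate 2), or 0.29 on the log2 scale (95% interval 0.08 to 0.50). The share of its leading transcript, Impact-201, was 57.2% in replicate 1 and 36.4% in replicate 2.

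The remaining singletons were under 1 TPM in both hearts. Zdbf2, a paternally expressed zinc finger gene, had 105 counts in replicate 1 and 61 in replicate 2, or 0.29 and 0.14 TPM. Its mean was 2.12 CPM. Its effective length was 11.0 kb in replicate 1, so its TPM was low for its counts. Nap1l5, an intronless nucleosome assembly gene inside Herc3, had 8 and 16 counts, far below its relative Nap1l1 at 19.7 TPM in each heart, with a mean log2 ratio of -5.95 ± 0.60 (-4.07 with a pseudocount of 1 TPM and -6.64 in the second tables). Rasgrf1, a Ras exchange factor gene known from brain, had 0 and 3 counts, against 1.88 and 2.13 TPM for its relative Rasgrf2.

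By the parental copy known to be expressed, 8 of 11 maternally expressed genes, 10 of 22 paternally expressed genes and 5 of 6 genes with both copies or a tissue-dependent copy reached 1 TPM in both hearts. The medians were 4.74 TPM in replicate 1 and 4.40 TPM in replicate 2 for the maternal genes, and 1.07 and 0.49 TPM for the paternal genes. Summed levels were closer, at 120.8 and 126.2 TPM for the 11 maternal genes and 140.3 and 147.9 TPM for the 22 paternal genes, of which Igf2 and Snrpn made up the larger part. The groups were of unequal size and were defined by earlier work, and no test of their difference was made. Of 7 noncoding members, 5 reached 1 TPM in both hearts, and of these Rian and Peg13 are annotated as neither lincRNA nor antisense. Of the 5 members annotated as lincRNA or antisense, 3 (H19, Airn and Meg3) did, against 2.27% of 8813 genes of these classes. Over 6 pairs of oppositely imprinted neighbours, the maternal gene was the higher by TPM in both hearts in 3 (Igf2r, Meg3 and Cdkn1c). The paternal gene was the higher in the other 3 (Igf2, Peg3 and Sgce). The order of Cdkn1c and Kcnq1ot1 rests on length scaling. By counts Cdkn1c was the lower in both hearts, at 550 and 659 against 916 and 959 for Kcnq1ot1. Over all 30 pairs compared within hearts, the first-named gene was higher in both in 6, the second in 22, and the order differed in 2 (Rian over Meg3 and Snrpn over Ube3a). In the second tables Rian and Snrpn were the higher in both hearts, with Meg3 at 4.77 TPM in replicate 1 and 4.20 TPM in replicate 2, and Ube3a at 43.0 and 45.6 TPM. Ndn over Magel2, Phlda2 over Cdkn1c and Rasgrf1 over Rasgrf2 are among the 30, and no ratio is given for them because a member had no count in at least 1 heart.

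Between the hearts, 27 of the 39 genes reached a mean of 1 CPM and could be compared. Ratios are log2 of replicate 1 over replicate 2 after TMM scaling of estimated counts, with exact 95% binomial intervals that cover counting error only. Of these 27, 1 differed 2-fold or more, higher in replicate 1 (3.70%), against 0.906% of 12910 genes higher in replicate 1, 0.310% higher in replicate 2 and 1.22% in either direction. The median ratio of the 27 was 0.01 and the median absolute ratio 0.12, and over all 12910 genes these were -0.01 and 0.12. The interval left out 0 for 10 of 27 members (37.0%) and for 33.2% of all genes. Apart from Nnat, Zdbf2 and Peg3, the 24 other members lay within 0.5 of 0 on the log2 scale, the lowest at -0.24 for H19.

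**Figure D3:**
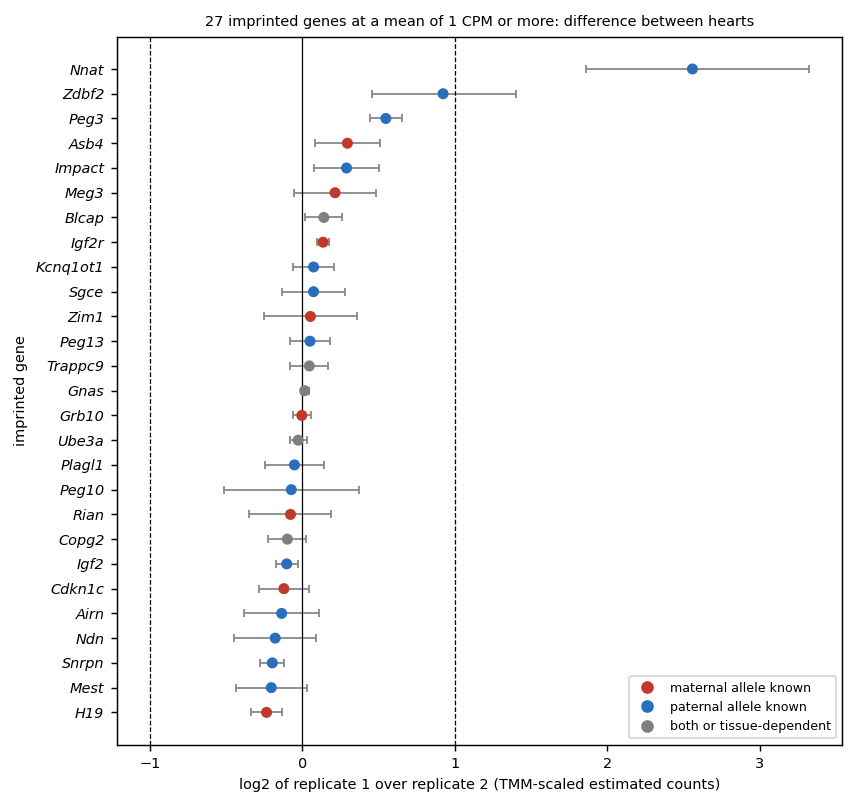
The log2 ratio of replicate 1 over replicate 2 of TMM-scaled counts (horizontal axis) for the 27 members at a mean of 1 CPM or more, with exact 95% intervals for counting error and dashed lines at 2-fold. Nnat, at 2.56, is the only point past a dashed line; Zdbf2 at 0.92 and Peg3 at 0.55 come next, and the others lie between -0.24 and 0.30.

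Nnat (chr2:157560078-157562522, plus strand), a paternally expressed gene for neuronatin, a small endoplasmic reticulum membrane protein of nerve, endocrine and fat cells, was the gene past 2-fold. It had 107 counts in replicate 1 and 20 in replicate 2, or 3.03 and 0.51 TPM, a 5.89-fold ratio (log2 2.56, 95% interval 1.86 to 3.33). The second tables gave 5.18 and 0.874 TPM, and a log2 ratio of 2.54. Its promoter is given because it is the start of every Nnat model counted in the first tables, with CG in capitals, on the plus strand.
Nnat (chr2:157559828-157560127): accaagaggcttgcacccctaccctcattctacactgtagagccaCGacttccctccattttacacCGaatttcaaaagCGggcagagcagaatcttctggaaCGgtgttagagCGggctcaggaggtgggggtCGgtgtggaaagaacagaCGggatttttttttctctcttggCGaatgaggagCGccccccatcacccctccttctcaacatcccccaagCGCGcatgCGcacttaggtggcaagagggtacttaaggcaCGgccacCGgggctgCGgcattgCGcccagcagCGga
It holds 17 CG dinucleotides and 1 match to TGCCGC. Nnat lies inside Blcap (chr2:157556362-157571274, minus strand), a small membrane protein gene on the other strand, which had 18.9 TPM in replicate 1 and 18.5 TPM in replicate 2. The log2 ratio of Nnat over Blcap was -2.60 in replicate 1 and -4.93 in replicate 2, and its mean of -3.77 was -3.00 with a pseudocount of 1 TPM.

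Adipocyte markers were also higher in replicate 1, and so were markers of some other cell types. Of 6 markers, the 5 that passed the count filter were each more than 2-fold higher in replicate 1, with a median log2 ratio of 2.64. Adipoq, the adiponectin gene, had 25.0 TPM in replicate 1 and 4.05 TPM in replicate 2. Cfd, the adipsin gene, had 174 and 22.1 TPM, and Plin1, which coats fat droplets, had 14.0 and 3.79 TPM. Lep, the leptin gene, was near 0 in both, at 0.17 and 0.11 TPM. Among the nerve cell markers reported here, Stmn2 had 1.62 TPM in replicate 1 and 1.82 TPM in replicate 2, and Tubb3, Snap25 and Syn1 were at 0.20 TPM or less in each heart. The 6 endothelial markers had a median log2 ratio of -0.10, and the 6 mural markers one of -0.15. Blood cell markers were higher in replicate 1, with medians of 1.01 for red blood cells and 0.97 for 3 platelet markers that passed the filter. Of 5 macrophage markers, 4 were higher in replicate 1, with a median of 0.25. So a higher level in replicate 1 was not particular to fat cell markers. The part of fat, nerve or any other cells in the Nnat, Peg3 and Zdbf2 differences was not tested.

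**Figure D4:**
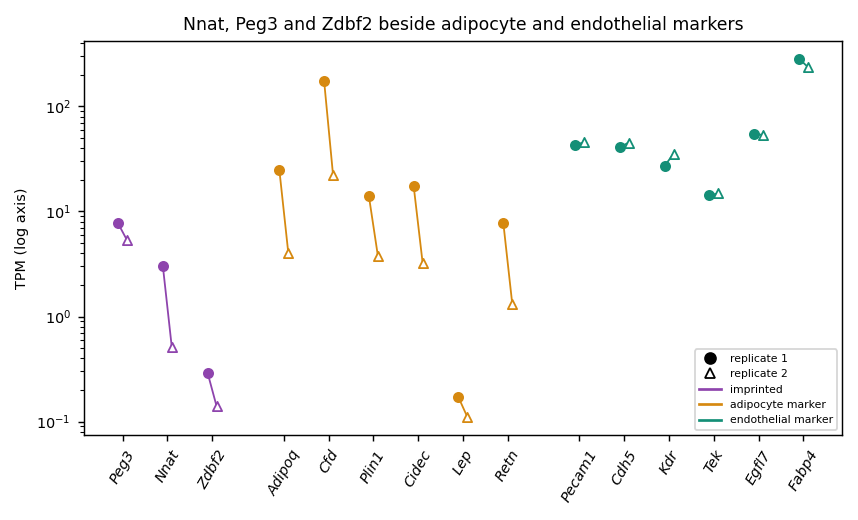
TPM (log axis) in replicate 1 (filled circles) and replicate 2 (open triangles) of Nnat, Peg3 and Zdbf2, of 6 adipocyte markers and of 6 endothelial markers, of which Fabp4 is also a fat cell gene. Nnat at 3.03 and 0.51 TPM differs by a like factor to Adipoq at 25.0 and 4.05 TPM, while the endothelial markers are nearly level.

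The promoters of members are described by their letters alone. RefSeq windows were found for 31 of the 39 genes, 45 windows in all, with a median of 13 CG dinucleotides against 7 over all windows of the same 300 bases. TGCCGC, searched on both strands, occurred in 11 of the 45 (24.4%), against 11.6% of all windows. The word itself contains a CG and the member windows hold more CG, so the shares compare windows of unlike composition. Member windows with starts within 100 bases of each other were also merged, while the windows of the whole set were not. A match of 6 letters is not evidence of a bound site. The H19, Rtl1, Peg10, Sgce, Peg13, Trappc9, Impact and Cdkn1c windows were not used here.

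Of the 23 genes at 1 TPM in both hearts, 21 have more than 1 annotated transcript. The leading transcript was the same in both hearts for 18 of these and held over 50% in both for 10. Igf2r was nearly all Igf2r-201, at 99.5% in replicate 1 and 99.1% in replicate 2. H19-202 held 83.2% and 81.6% of H19, Asb4-201 held 87.6% and 82.7% of Asb4, and Peg3-201 held 69.6% and 70.0% of Peg3. Igf2 was spread: Igf2-207, a model of 376 bases, had 28.7% and 27.0%, and Igf2-208 had 25.9% and 27.2%, while in the second tables Igf2-207 was at 0 and Igf2-209 led with 39.7% and 38.5%. The leading transcript was the same in both sets of tables for 16 of 21, the exceptions being Igf2, Snrpn, Ube3a, Blcap and Gnas.

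Gene levels were more alike between the sets of tables than transcripts. Over the 23 genes, the median log2 ratio of the second over the first was 0.30, against 0.28 over all expressed genes, and 22 of the 23 were higher in the second. Against that common shift, Airn (0.76), Impact (0.75), Blcap (0.74) and Cdkn1c (0.64) were raised most, and Meg3 (-0.03) and Peg3 (0.03) least.

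**Figure D5:**
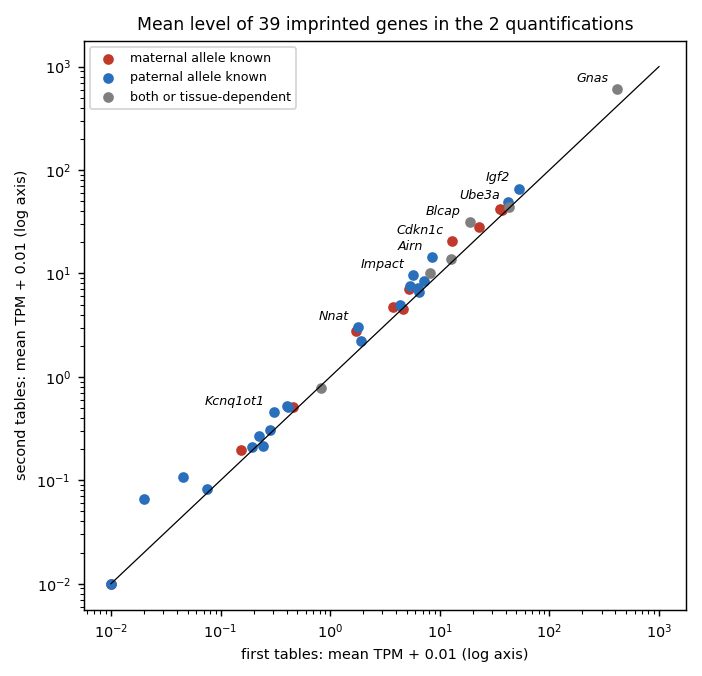
Mean TPM + 0.01 over both hearts in the authors' first tables (horizontal) and second tables (vertical), both on log axes, for the 39 genes coloured by the parental copy known to be expressed; the line marks equal values. Most points lie slightly above the line, at a median log2 ratio of 0.30 for the 23 genes at 1 TPM or more in both hearts.

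Other imprinted genes and the proteins that maintain imprints were present too. Of 42 further genes listed as imprinted, 24 reached 1 TPM in both hearts, against 21.3% of all annotated genes and 49.5% of protein-coding genes. The most abundant were Cd81 (139 TPM in replicate 1 and 152 TPM in replicate 2), Dcn (150 and 136 TPM), a matrix proteoglycan gene of fibroblasts, and Nap1l4 (57.9 and 61.3 TPM). This list was not divided by the tissue of imprinting, and no alleles were counted. These levels therefore do not show that a gene is imprinted in heart. Ins2, Zfp264 and Cpa4 had no count in either heart, and 0 of the 27 that passed the count filter differed 2-fold between the hearts. Of 16 genes of the imprinting machinery, 12 reached 1 TPM in both hearts. Trim28 had 33.5 and 31.1 TPM, Dnmt3a, a DNA methyltransferase gene, had 26.6 and 30.5 TPM, and Zfp445 had 28.4 and 28.1 TPM. Zfp57 had 43 counts in each heart, or 0.69 and 1.05 TPM, and Dppa3, which guards methylation in the zygote, had none.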

How the data were processed

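Total RNA of 2 hearts, the 1 group of the study, was analysed. The members and gene lists were chosen with earlier results of these data known. Per the text deposited with the tables, the authors aligned reads to the mm10 transcriptome (GENCODE M21) and deposited expected counts and TPM per gene and transcript, posterior mean TPM, the percent of a gene's abundance on each transcript, and lower and upper bounds of TPM as a signal on the TPM scale. A second set of tables, estimated from the read files, gives estimated counts and TPM per transcript, which were summed per gene here. The sources used here give no tool, version or use of strand for either set.

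Expected counts were rounded to whole numbers and scaled with TMM factors (edgeR 4.0.16, R 4.3.3), leaving out spike-ins and transfer RNA rows. Ratios between hearts required a mean of 1 CPM (counts scaled to library size) and carry exact Clopper-Pearson 95% intervals. Those cover counting error only, and a count of 0 was floored at 3 counts per library. The scaling and the ratios were tested on simulated counts, by the median error of the ratio and the percent of genes past 2-fold. The coverage of the intervals and the floor were not tested. Pair ratios used TPM + 0.1. Transcript starts were matched to RefSeq starts within 100 bases. All 39 genes were named, with every fixed pair, the 3 most abundant genes of the lists of other imprinted genes, imprinting machinery and IGF system and those at 0; cell type markers are summarised, with examples chosen after their values were seen. Alternatives used DESeq2 1.42.0 size factors, spike-in totals, TPM ratios, other thresholds, filters and pseudocounts, posterior means, the second tables and each heart alone. 1 marker gene is not reported here.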

Additional observations from a re-analysis of the deposited data

How the results depend on the processing

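No paired analysis was possible because the study has only 1 group. The count of 23 genes at 1 TPM or more in both hearts was 23 in the second tables, 25 with posterior mean TPM or at 0.5 TPM, 21 at 2 TPM, and 23 to 24 with a heart left out. The median level of 4.36 TPM became 4.69 TPM in the second tables and 4.91 TPM with posterior means, and 4.33 to 4.39 TPM with a heart left out. The count of 1 gene 2-fold higher in replicate 1 stayed at 1 with DESeq2 size factors and in the second tables. It was 2 with spike-in totals or at 1.5-fold, where Zdbf2 joins Nnat, and 2 with no filter, where Slc22a18 joins on 7 and 3 counts. It was 0 with a minimum of 5 CPM, which removes Nnat itself. Over all genes, the 117 higher in replicate 1 became 936 with no filter, 41 at 5 CPM and 382 at 1.5-fold, and the 40 higher in replicate 2 became 745, 8 and 204. Spike-in totals moved the median of all genes to 0.13 (log2), against -0.01 with TMM. Of 27 member ratios, 14 kept their sign under the 4 other scalings and tables, Nnat (2.36 to 2.70), Peg3 and Zdbf2 among them. The pair Cdkn1c over Cdkn1b reversed to 0.10 in the second tables; the cause was not tested. Pseudocounts of 0.01 and 1 TPM moved 6 and 14 of 30 pair ratios by over 1.5-fold, and 3 moved so far in the second tables. A pseudocount added to both genes of a pair cannot change their order, so this choice does not test the order. The count of pairs with the first gene higher was 6 to 8, and with the second gene higher 22 to 24, with a heart left out. The count of leading transcripts over 50% was 9 in the second tables and 11 to 13 with a heart left out. Counts that require both hearts cannot fall when a heart is left out, so such ranges, here and above, could show no loss. Genes with few counts, such as Nnat in replicate 2 (20), are limited by depth.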
